A study of Mus musculus with 8 samples.

Results

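The genes described here are 10 genes of fibulins and elastic fibres in mouse embryonic fibroblasts (MEFs) with and without SLMAP3, a protein of the centrosome and of the STRIPAK complex. They are Fbln1, Fbln2, Fbln5, Efemp1, Efemp2, Eln, Fbn1, Fbn2, Ltbp1 and Lox, and they were found by name among the 55401 genes of the count table. Fbln1 was chosen for its difference between SLMAP3-/- and WT lines in these same data, so its values in that comparison are a description and no test of it is given as support. The other 9 genes were named as its partners in the elastic fibre, and the comparison asks whether they differed as Fbln1 did.

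RNA was sequenced from 8 lines, 4 SLMAP3-/- and 4 WT, each from a different E14.5 embryo of B6C3F1 background, with 1 library per line. SLMAP3-/- mice carry a floxed exon of Slmap that was recombined by Cre under a CMV promoter, and the deletion was global. Cells were grown from the body after the head and organs were taken away, and all 8 lines were immortalized with SV40 large T antigen, so the WT lines carry it too. Each line is a culture of its own, and values are CPM, estimated counts scaled to a common library total after edgeR's TMM normalisation. Totals ranged from 49879059 to 63322486 estimated counts per line.

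Elastic fibres consist of an elastin core laid down on a scaffold of fibrillin microfibrils. Fibulins are secreted glycoproteins that bind elastin, fibrillins and other matrix proteins, lysyl oxidase crosslinks elastin into an insoluble polymer, and latent TGF-beta binding proteins tether inactive TGF-beta to the microfibrils. Fibroblasts and smooth muscle cells are the usual sources of these proteins in the embryo.

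Slmap, the targeted gene (chr14:26413168-26534931 on GRCm38, minus strand), was 38.3 ± 4.94 CPM in SLMAP3-/- lines and 137 ± 8.60 CPM in WT lines (SD, n = 4 each). Its log2 fold change was -1.84 with an adjusted p of 0.00119 in edgeR's quasi-likelihood test, and no library went against its label. All 9 of the fibroblast markers examined passed the filter on low counts, and their summed level was 10240 to 12950 CPM in SLMAP3-/- and 11290 to 14480 CPM in WT lines, without TMM scaling. All 6 smooth muscle markers passed as well, with sums of 2053 to 4465 CPM in SLMAP3-/- and 2156 to 4581 CPM in WT lines. The lists were uneven. With TMM scaling, the fibroblast marker Col1a1 was 4508 to 7010 CPM, while Dcn was 0.323 to 14.8 and Lum 0.113 to 18.5 CPM. The smooth muscle marker Acta2 was 1095 to 3086 CPM, while Myh11 was 0.226 to 2.06 and Des 0.134 to 0.425 CPM. No smooth muscle marker was at 0 in every line. None of the 4 skeletal muscle markers passed, and Myod1 was at 0 in every line. Of other cell types, 2 of 6 endothelial, 2 of 5 macrophage and blood, 4 of 5 epithelial, 3 of 4 chondrocyte and 2 of 4 neural crest markers passed, and their sums in a line reached at most 39.8, 5.37, 47.5, 67.5 and 1.21 CPM. In bulk RNA, fewer cells of a type and less RNA per cell cannot be told apart, and any part of the smooth muscle markers in the results was not tested.

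Fbln1 (ENSMUSG00000006369.14) lies on chr15:85205949-85286535, plus strand, in GENCODE M21 on GRCm38. RefSeq's GRCm38.p6 promoter table was matched by symbol, and windows of 7 of the 10 genes were kept. Fbn2 and Lox were left out of this search by name, and no window was found for Eln. Fbln1 is the gene the comparison turns on, and Fbln5 and Efemp2 are fibulins it is set against. For the fibulins, the 250 bases before a RefSeq start are shown where no exon annotated in M21 overlaps them. They are written 5′ to 3′ on the gene's strand, and capitals mark matches on either strand to any of 7 motifs. No motif match overlaps another in them.
Fbln1, chr15:85205699-85205948, plus strand: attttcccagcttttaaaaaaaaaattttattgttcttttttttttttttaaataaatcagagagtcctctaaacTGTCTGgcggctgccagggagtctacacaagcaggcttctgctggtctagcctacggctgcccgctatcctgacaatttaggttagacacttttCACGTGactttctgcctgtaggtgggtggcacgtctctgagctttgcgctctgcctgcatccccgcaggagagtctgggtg
Fbln5, chr12:101819120-101819369, minus strand: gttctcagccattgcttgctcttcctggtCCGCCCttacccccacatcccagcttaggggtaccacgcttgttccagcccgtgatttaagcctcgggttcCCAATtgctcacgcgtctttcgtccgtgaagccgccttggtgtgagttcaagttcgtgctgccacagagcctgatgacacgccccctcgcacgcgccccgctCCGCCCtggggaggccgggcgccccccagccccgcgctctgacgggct
Efemp2, chr19:5473696-5473945, plus strand: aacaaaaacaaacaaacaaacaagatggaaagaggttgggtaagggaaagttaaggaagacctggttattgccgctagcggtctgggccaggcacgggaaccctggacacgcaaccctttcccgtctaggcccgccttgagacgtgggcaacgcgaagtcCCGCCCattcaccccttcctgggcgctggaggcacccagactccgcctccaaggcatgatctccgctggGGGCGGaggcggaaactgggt
The motifs searched were the TATA box TATAAA, the CCAAT box CCAAT, the GC box GGGCGG, the E-box CACGTG, the AP-1 motif TGACTCA, the TEAD motif CATTCC and the SMAD motif CAGACA. The Fbln1 stretch held 1 E-box and 1 SMAD motif, which 6.02% and 17.1% of the 32851 promoter windows in the table hold in the same 250 bases. The Fbln5 stretch held 2 GC boxes and 1 CCAAT box, and the Efemp2 stretch held 2 GC boxes, against 32.7% of windows with a GC box and 33.8% with a CCAAT box. TATAAA was in 12.4% of all windows, TGACTCA in 4.46% and CATTCC in 12.6%, and those letters were in none of the 3 stretches shown. CpG dinucleotides numbered 7 in the Fbln1 stretch, 21 in Fbln5 and 15 in Efemp2, beside a median of 6 over all windows. These counts hold for the starts shown only. Each of the 3 genes has at least 1 other RefSeq start, whose 250 bases overlap annotated exons. There Fbln1 had 14 CpG and 1 GC box, with 1 E-box and 1 SMAD motif. Fbln5 had 6 CpG, 1 SMAD motif and no GC box. The other Efemp2 windows had 27 and 33 CpG, and 5 GC boxes each. These matches describe the letters only, and no binding was measured.

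Fbln1 encodes fibulin-1, a fibulin of basement membranes and elastic fibres that binds fibronectin, nidogen and versican. Its level was 153, 102, 126 and 121 CPM in SLMAP3-/- replicates 1 to 4, and 66.2, 70.2, 84.7 and 75.5 CPM in WT replicates 1 to 4. All 4 SLMAP3-/- lines lay above all 4 WT lines, and the lowest SLMAP3-/- line, replicate 2, exceeded the highest WT line, replicate 3. The mean was 1.69 times as high, with a log2 fold change of 0.76 (SE 0.14, 95% interval 0.45 to 1.07). These are the values the gene was chosen on. edgeR did not call Fbln1, with an adjusted p of 1.00, whereas DESeq2 gave an adjusted p of 0.0159. Without 1 line at a time, DESeq2's adjusted p for Fbln1 ran from 0.000176 to 0.120, and it was above 0.05 without SLMAP3-/- replicate 3 (0.0521), WT replicate 2 (0.0631) or WT replicate 4 (0.120).

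All 10 genes passed the filter on low counts, as did 15461 genes in all. edgeR called 0 of the 10 at an adjusted p under 0.05, where it called 0.00647% of tested genes, and 1 of the 10, Fbln1, had an unadjusted p under 0.05, where 1.81% did. DESeq2 called Fbln1 alone of the 10, where it called 0.0325% of the genes it gave an adjusted p, and limma-voom called 0. Fbln1 was also the 1 gene of the 10 whose lines did not overlap between genotypes, where 1.25% of tested genes did not overlap in either direction and 0.724% did not overlap with SLMAP3-/- higher. Of these counts, those that come from Fbln1 follow from its choice. Over the other 9 genes, 4 estimates were above 0 and 5 below, none had an unadjusted p under 0.05, and the median log2 fold change was -0.02, beside -0.0014 over all tested genes. The 95% intervals of Fbln2, Efemp1, Eln, Fbn2 and Lox included both 0 and the Fbln1 estimate of 0.76. For these genes a difference like that of Fbln1 cannot be told from none. The intervals of Fbln5, Efemp2, Fbn1 and Ltbp1 included 0 and ended below 0.76.

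**Figure D1:**
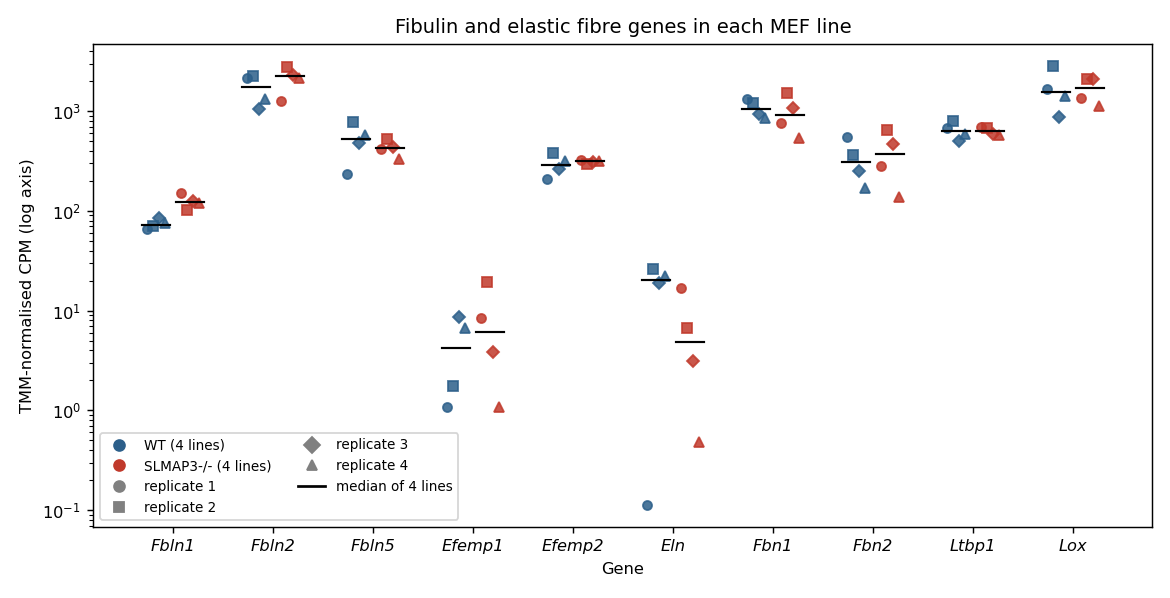
CPM on a log axis for each of the 10 genes in the 4 WT lines (blue) and the 4 SLMAP3-/- lines (red), with a bar at each group's median and a symbol for each replicate number. Fbln1 is the gene with no overlap between the colours, and Eln ranges from 0.113 to 25.9 CPM.

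Fbln2 (chr6:91212455-91272540, plus strand) encodes fibulin-2, the fibulin nearest to fibulin-1 in structure. It was 1279, 2771, 2316 and 2165 CPM in SLMAP3-/- replicates 1 to 4 and 2158, 2245, 1054 and 1339 CPM in WT replicates 1 to 4. SLMAP3-/- replicate 1 lay with the lower WT lines 3 and 4, and the other 3 SLMAP3-/- lines lay with WT replicates 1 and 2, so the groups overlapped. The log2 fold change was 0.33 (95% interval -0.36 to 1.02, edgeR adjusted p 1.00). It was 0.15 without WT replicate 3, 0.18 without SLMAP3-/- replicate 2 and 0.51 without SLMAP3-/- replicate 1.

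Fbln5 (chr12:101746565-101819055, minus strand) encodes fibulin-5, which binds elastin and is needed for elastic fibre assembly. Its 4 SLMAP3-/- lines were at 420, 526, 435 and 329 CPM, and its 4 WT lines at 237, 778, 483 and 577 CPM. The SLMAP3-/- range lay within the WT range, whose lowest line was replicate 1 and whose highest was replicate 2. The log2 fold change was -0.28 (95% interval -1.01 to 0.45, edgeR adjusted p 1.00), and it was -0.52 without WT replicate 1 (unadjusted p 0.0369 and adjusted p 0.999 in edgeR) and -0.01 without WT replicate 2.

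Efemp1 (chr11:28853204-28926743, plus strand) encodes fibulin-3, and Efemp2 (chr19:5473954-5482517, plus strand) encodes fibulin-4, which brings lysyl oxidase to elastin. Efemp1 was low and uneven, at 8.45, 19.4, 3.81 and 1.07 CPM in SLMAP3-/- lines and 1.08, 1.76, 8.61 and 6.73 CPM in WT lines. Each genotype held lines near 1 CPM and lines above 6 CPM, and the largest value was 18.0 times the smallest. The Efemp1 log2 fold change of 0.85 (95% interval -1.21 to 2.90, edgeR adjusted p 1.00) became -0.03 without SLMAP3-/- replicate 2. Efemp2 was 322, 297, 311 and 320 CPM in SLMAP3-/- lines and 209, 382, 263 and 319 CPM in WT lines. The SLMAP3-/- lines were close together inside the WT range, and the log2 fold change was 0.09 (95% interval -0.30 to 0.48, edgeR adjusted p 1.00). Mus81 overlaps Efemp2 on the opposite strand, and whether the counting used strand is not given in the sources used here, so their reads may not be told apart. Mus81 was at 16.0 to 20.7 CPM in all 8 lines.

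Eln (chr5:134702593-134747323, minus strand) encodes tropoelastin, the monomer of the elastin core. Its level was 16.9, 6.62, 3.15 and 0.479 CPM in SLMAP3-/- replicates 1 to 4, and 0.113, 25.9, 18.8 and 22.2 CPM in WT replicates 1 to 4. The highest line was 229 times the lowest, and both ends of that range were WT lines. WT replicate 1 had 7 estimated counts, where the highest line had 1336, so counting error is large in that line. WT replicate 1 lay below every SLMAP3-/- line, and the other 3 WT lines lay above every SLMAP3-/- line. The log2 fold change was -1.30 (95% interval -4.16 to 1.56, edgeR adjusted p 1.00), and without WT replicate 1 it was -1.71 (edgeR unadjusted p 0.0915, adjusted p 0.999). It was -2.29 without SLMAP3-/- replicate 1 and -0.91 without SLMAP3-/- replicate 4, and it was -0.57 with limma-voom, none of them past the threshold.

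Fbn1 (chr2:125300594-125507993, minus strand) and Fbn2 (chr18:58008623-58210487, minus strand) encode fibrillin-1 and fibrillin-2, the backbone of microfibrils, with fibrillin-2 most abundant in embryonic tissue. Fbn1 was 760, 1528, 1069 and 542 CPM in SLMAP3-/- lines and 1327, 1198, 928 and 845 CPM in WT lines. Fbn2 was 279, 651, 471 and 138 CPM in SLMAP3-/- lines and 547, 367, 250 and 171 CPM in WT lines. For both fibrillins the 8 lines' highest and lowest values were SLMAP3-/- replicates 2 and 4, and the WT range lay inside. The log2 fold changes were -0.14 for Fbn1 (95% interval -0.84 to 0.56) and 0.21 for Fbn2 (95% interval -0.92 to 1.34), each with an adjusted p of 1.00 in edgeR. The log2 ratio of Fbn1 to Fbn2 counts was 1.46 ± 0.361 in SLMAP3-/- and 1.80 ± 0.425 in WT lines (SD, n = 4 each, exact two-sided permutation p = 0.286, with 0.0286 the smallest p that 4 against 4 lines allow).

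Ltbp1 (chr17:75005568-75392512, plus strand) encodes a latent TGF-beta binding protein that holds the latent growth factor in the matrix. It was the steadiest of the 10 genes over all 8 lines, at 688, 674, 589 and 572 CPM in SLMAP3-/- lines and 684, 790, 497 and 594 CPM in WT lines. The SLMAP3-/- lines lay within the WT range, and the highest line was 1.59 times the lowest. The log2 fold change was -0.02 (95% interval -0.37 to 0.32, edgeR adjusted p 1.00).

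Lox (chr18:52516067-52529867, minus strand) encodes lysyl oxidase, the copper enzyme that begins the crosslinking of elastin and collagen. It was 1350, 2112, 2097 and 1130 CPM in SLMAP3-/- lines and 1686, 2842, 866 and 1404 CPM in WT lines. WT replicates 2 and 3 were the highest and the lowest of all 8, and the SLMAP3-/- lines lay between them. The log2 fold change was -0.02 (95% interval -0.84 to 0.80, edgeR adjusted p 1.00). Its sign changed with the method, to 0.05 with limma-voom.

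**Figure D2:**
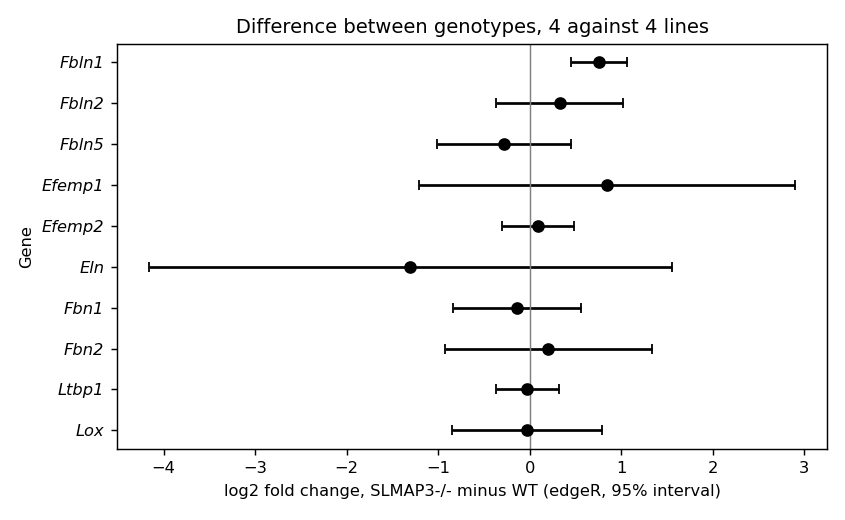
Log2 fold change of each of the 10 genes, SLMAP3-/- minus WT, as edgeR estimated it over 4 against 4 lines, with bars for the 95% interval. The intervals of the 9 genes other than Fbln1 include 0, and the interval of Eln is the widest, from -4.16 to 1.56.

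Most of these genes varied widely among lines that share a genotype. The SD of log2 CPM within genotypes had a median of 0.552 over the 9 genes other than Fbln1, where it was 0.275 over all tested genes and 0.186 over the 2436 genes with a mean of at least 100 CPM. Eln had an SD of 2.97 and Efemp1 of 1.61, above 99.7% and 97.3% of tested genes. Fbn2 followed with 0.858, and Lox, Fbln5, Fbln2 and Fbn1 were between 0.503 and 0.596. Efemp2 (0.267), Ltbp1 (0.223) and Fbln1 (0.201) had the smallest SDs of the 10. No line was high or low in all of them. WT replicate 2 was the highest of the 8 lines in 5 of the 9 genes other than Fbln1, and SLMAP3-/- replicate 2 in 4. SLMAP3-/- replicate 4, WT replicate 1 and WT replicate 3 were each the lowest in 3. These counts were not made over all tested genes. All 10 genes together took 0.445% to 0.870% of the total CPM of a line.

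**Figure D3:**
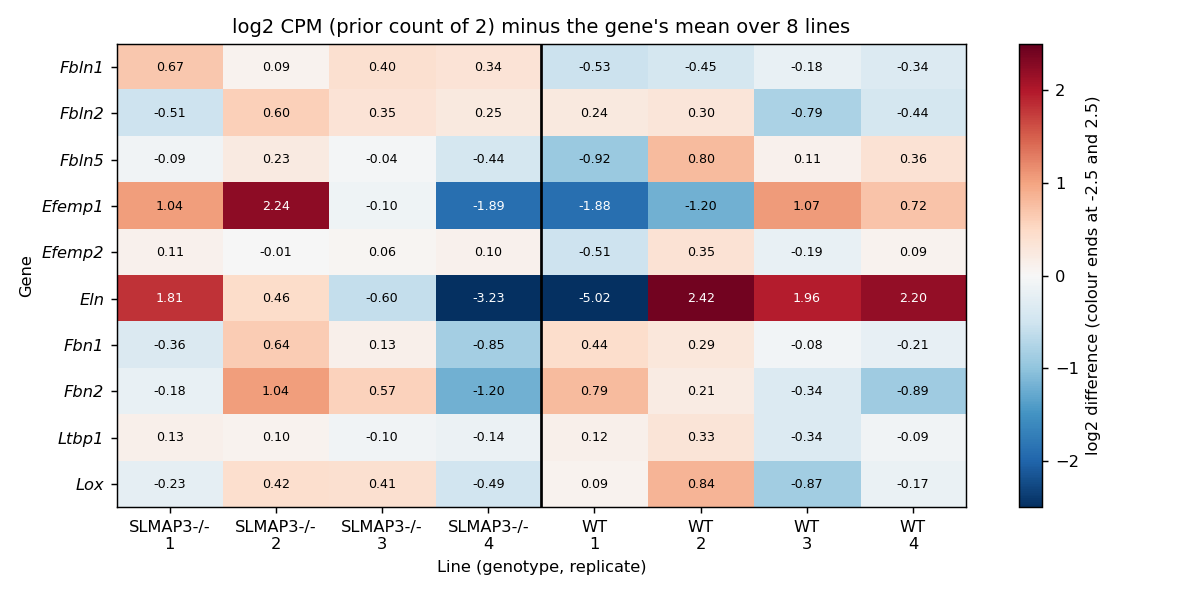
Log2 CPM of each gene in each line, less that gene's mean over the 8 lines, with red above and blue below the mean and the value written in each cell. The Fbln1 row is above 0 in the 4 SLMAP3-/- lines and below 0 in the 4 WT lines, and the Eln row runs from -5.02 to 2.42.

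Among the 9 genes other than Fbln1, levels were compared across the 8 lines in 36 pairs, with exact two-sided permutation tests and Benjamini-Hochberg adjustment over the 36. Of these, 27 pairs had a positive Pearson's r and 9 a negative r, and 2 pairs had an adjusted p under 0.05. The fibrillins Fbn1 and Fbn2 had r = 0.914 (exact permutation p = 0.00166, adjusted 0.0353) and Spearman's rho = 0.905 (exact permutation p = 0.00456, adjusted 0.130). Without SLMAP3-/- replicates 2 and 4, the lines farthest from the Fbn1 median, r was 0.794, and after centring each genotype on its mean it was 0.966. In each genotype the 4 lines stood in the same order for the 2 fibrillins. Fbln5 and Eln had r = 0.888 (exact permutation p = 0.00196, adjusted 0.0353) and rho = 0.881 (exact permutation p = 0.00724, adjusted 0.130). Without WT replicates 1 and 2, the lines farthest from the Fbln5 median, r was 0.796, without WT replicate 1 alone it was 0.765, and after centring it was 0.885. The 6 remaining lines gave an exact permutation p of 0.0694 for the fibrillins and 0.0569 for Fbln5 and Eln. The next pair, Ltbp1 and Lox, had r = 0.799 (exact permutation p = 0.0176, adjusted 0.211), and its r fell to 0.291 without WT replicates 2 and 3, on which that relation rests. The pair of Fbln5 and Efemp2 had r = 0.765 (exact permutation p = 0.0338, adjusted 0.304) and -0.298 without WT replicates 1 and 2.

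Correlations of Fbln1 with the other members were tested within genotypes only, since the lines fell into separate groups by genotype in Fbln1. After centring each genotype, Fbln1 and Fbln2 had r = -0.911, whereas without centring r was -0.0263 over the 8 lines. The inverse relation therefore holds within genotypes only. In each genotype the line with the most Fbln1 had the least Fbln2. Among SLMAP3-/- lines that was replicate 1, with 153 CPM of Fbln1 and 1279 CPM of Fbln2. Among WT lines it was replicate 3, with 84.7 CPM and 1054 CPM. An exact permutation test over the 576 arrangements within genotypes gave p = 0.00694, which failed the correction over the 9 partners (adjusted p 0.0625), and this comparison was chosen after its values were seen. The r was -0.913 without SLMAP3-/- replicates 1 and 2, the lines farthest from the median of Fbln1 after centring. It was between -0.944 and -0.845 without any 1 line. The correlation of within-genotype ranks was -0.80. For the other 8 genes the centred r ran from -0.617 for Fbn1 to 0.439 for Eln, with exact permutation p-values from 0.125 to 0.880.

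**Figure D4:**
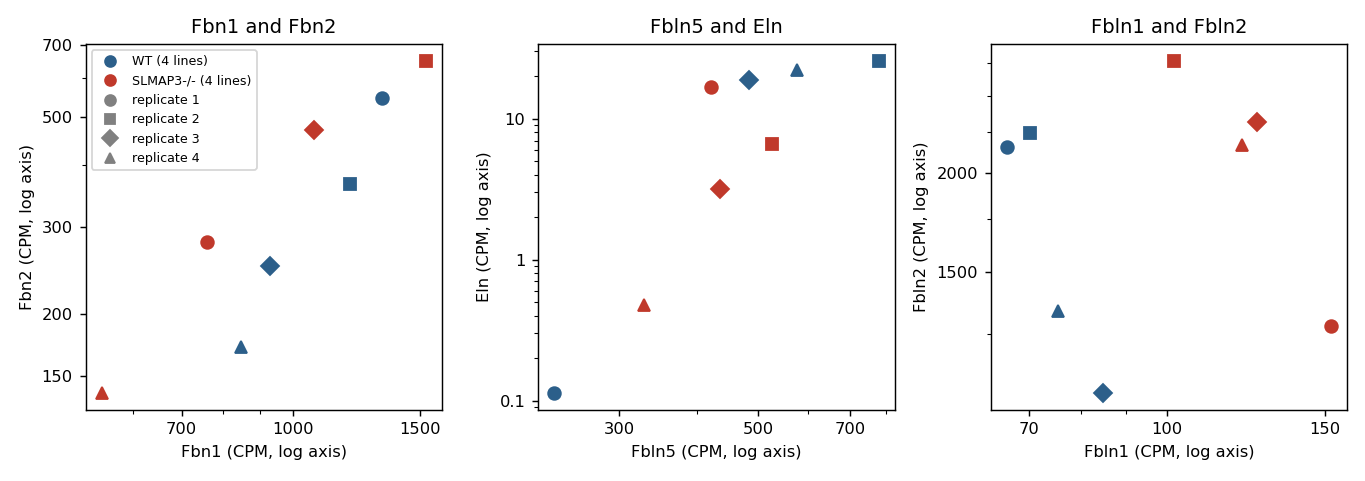
CPM on log axes for 3 pairs of genes, Fbn1 with Fbn2, Fbln5 with Eln, and Fbln1 with Fbln2, with WT lines in blue, SLMAP3-/- lines in red and a symbol for each replicate number. The first and second pair rise together over the 8 lines (r = 0.914 and 0.888 on log2 CPM), and in the third the points fall within each colour.

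Of 12771 genes with a mean of at least 1 CPM, the 5 whose log2 CPM followed Fbln1 most closely over the 8 lines were Mgst1 (r = 0.952), Ift52 (0.950), Ehmt2 (0.946), Inha (0.929) and Anks6 (0.925). All 5 had SLMAP3-/- lines above WT lines with no overlap, which the choice by likeness to Fbln1 favours, so no test is given. After centring each genotype their r with Fbln1 was 0.803, 0.884, 0.714, 0.809 and 0.720, values that the choice favours too. No elastic fibre gene was among the 5, but such genes are a small part of the 12771, so no contrast is drawn. Within the 10 the most positive r with Fbln1 without centring was 0.307, for Efemp2.

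Levels between genes were set side by side per kilobase of the longest coding transcript in M21, as CPM per kb. Fbln2 and Lox had the highest medians over the 8 lines, 452 and 326 CPM per kb, and their ranges overlapped. Efemp2 (119), Ltbp1, Fbn1 (83.4) and Fbln5 (78.8) came next in that order, and each overlapped its neighbour in this order. The lowest Lox line, at 183 CPM per kb, was above the highest Efemp2 line at 145. Fbn2 (29.3) and Fbln1 (25.5) overlapped each other. Eln (3.05) and Efemp1 (2.59) were the lowest and overlapped each other, and the highest Eln line, at 6.71 CPM per kb, was below the lowest Fbln1 line at 18.1. With the mean length of coding transcripts in place of the longest, Fbn1 and Fbln5, Fbn2 and Fbln1, and Eln and Efemp1 changed places. The medians of Fbln2 and Efemp2 were then 1029 and 241 CPM per kb, and the lowest Lox line (188) was no longer above the highest Efemp2 line (292). The highest Eln line stayed below the lowest Fbln1 line (22.3).

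The rest of the elastic fibre machinery was followed in 42 further genes, of which 38 passed the filter and 4 (Emilin3, Adamtsl2, Mmp12 and Ctss) had at most 10 estimated counts in any line. None of the 38 was called by edgeR, DESeq2 or limma-voom. Over all genes edgeR called 0.00647% of those tested, DESeq2 0.0325% of those it gave an adjusted p, and limma-voom 1 of 15461. At such small shares, finding none among 38 genes does not set them apart. None had an unadjusted p under 0.05 in edgeR, where 1.81% of tested genes did. DESeq2 gave an unadjusted p under 0.05 for 2 of them, Hmcn1 and Vcan, where it did so for 2.68% of the genes tested in edgeR. The number with an unadjusted p under 0.05 in edgeR changed with the lines and the settings. It was 5 without WT replicate 1, 3 without WT replicate 2 and from 0 to 2 without each of the other lines. It was 3 with the replicate block and 1 with a Y-linked covariate. With no low-count filter, where the 4 genes below the filter were tested as well, it was 3. None of these passed the adjustment. The share over all tested genes was not computed for those fits, so the 1.81% is not their background. The estimates were above 0 for 15 and below 0 for 23, where 7647 were above and 7814 below over all tested genes. No gene's lines were free of overlap, where those of 1.25% of tested genes were, so this does not set the 38 apart. The median log2 fold change was -0.08, beside -0.0014 over all tested genes.

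The most abundant gene of each role is given here. Hmcn1, which encodes hemicentin-1 of the wider fibulin family, was 39.3, 29.0, 38.2 and 26.1 CPM in SLMAP3-/- lines and 21.4, 29.2, 103 and 106 CPM in WT lines. WT replicates 3 and 4 stood above the other 6 lines, with a log2 fold change of -0.97 (95% interval -2.12 to 0.18). Ltbp2, a latent TGF-beta binding protein that binds fibrillin-1 and fibulin-5, was 464, 247, 374 and 468 CPM in SLMAP3-/- lines and 176, 935, 819 and 871 CPM in WT lines. As with Eln, WT replicate 1 was the lowest of the 8 lines and the other 3 WT lines were the highest, and the log2 fold change was -0.85 (95% interval -1.91 to 0.20). Loxl1, the lysyl oxidase relative that fibulin-5 binds, was 414 to 639 CPM in SLMAP3-/- and 413 to 667 CPM in WT lines, with a log2 fold change of 0.04 (95% interval -0.38 to 0.46).

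Emilin1, a glycoprotein at the border of elastin and microfibrils, had a log2 fold change of -0.04 (95% interval -0.48 to 0.41), and Adamtsl4, a microfibril-binding ADAMTS-like protein, -0.28 (95% interval -0.72 to 0.15). Tgfb3, the most abundant of the 3 TGF-beta genes, was 220 to 292 CPM in SLMAP3-/- and 178 to 427 CPM in WT lines, and all 3 TGF-beta genes had estimates below 0 that did not pass the test. Fn1, the fibronectin that fibulin-1 binds, was 5481 to 8937 CPM in SLMAP3-/- and 6437 to 9235 CPM in WT lines, with a log2 fold change of -0.20 (95% interval -0.62 to 0.23). Vcan, the fibulin-1-binding proteoglycan versican, was named after its values were seen, because it had the lowest p of the 38 (edgeR unadjusted p 0.063, adjusted p 1.00). It was 150, 319, 228 and 154 CPM in SLMAP3-/- lines and 232, 285, 537 and 318 CPM in WT lines, which overlapped. In the elastin receptor complex Ctsa, the protective protein cathepsin A, had a log2 fold change of 0.13 (95% interval -0.22 to 0.47), and among elastin-degrading enzymes Ctsl, cathepsin L, had 0.01 (95% interval -0.44 to 0.46).

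**Figure D5:**
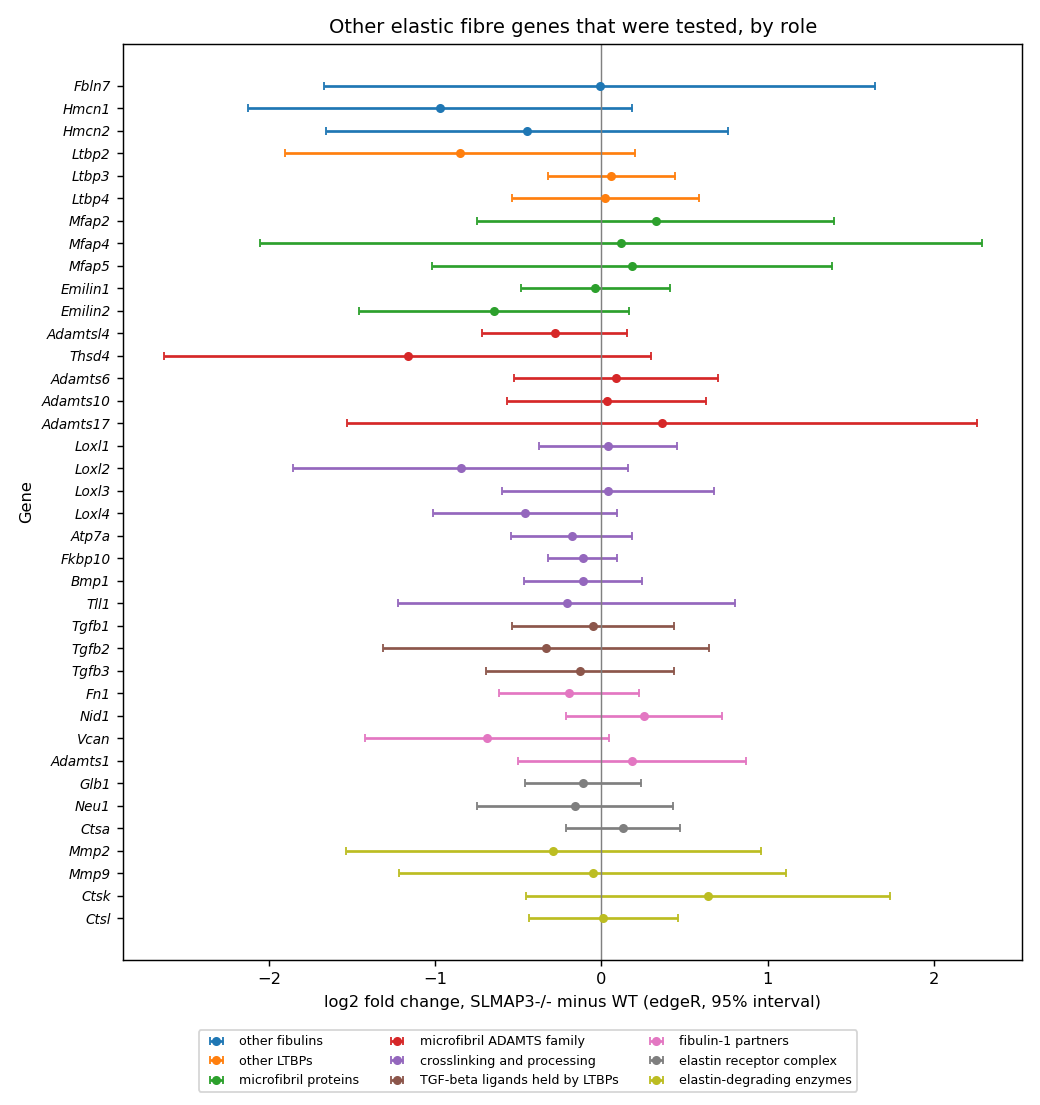
Log2 fold change with its 95% interval, SLMAP3-/- minus WT from edgeR, for the 38 other elastic fibre genes that were tested, coloured by role. Each of the 38 intervals includes 0, with 15 estimates above 0 and 23 below.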

How the data were processed

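RNA-seq of 8 MEF lines was analysed from 1 table. The authors assigned reads of stranded mRNA libraries to the GENCODE M25 transcriptome of GRCm38 with Salmon, summed them by gene and deposited length-scaled estimated counts, which are not normalised between lines. Salmon's version is not given in the sources used here. A second table holds the authors' DESeq2 comparison (fold changes and p-values) and was not used.

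Genotypes came from the sample labels. Estimated counts were rounded and tested in edgeR 4.0.16 (R 4.3.3) with filterByExpr (minimum count 10), TMM and the quasi-likelihood test without covariates, adjusted by Benjamini-Hochberg over all tested genes with a threshold of 0.05. Standard errors and intervals were derived from its F statistic. Log2 CPM used a prior count of 2. Alternatives used DESeq2 1.42.0, limma 3.58.1 voom, other scaling and filters, a Y-linked covariate, a replicate block and leaving out each line. The covariate was the sum of log2 CPM of the Y-linked genes Ddx3y, Eif2s3y, Kdm5d and Uty. It ran from -27.4 to 22.1 in SLMAP3-/- and from -26.8 to 22.1 in WT lines, so lines within each genotype differed in Y-linked expression. The tools were tested on simulated data. Correlations used exact permutations in Python 3.11.15, and positions came from GENCODE M21, which shares the build.

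The members and the gene lists were chosen with earlier results of these data known. The rule for named genes took the 10 members, Slmap, other elastic fibre genes that passed a call, had an edgeR p under 0.05 or did not overlap (there were none), the most abundant gene of each role, and the 5 genes most like Fbln1. Vcan, Mus81, the markers and the genes with a line that stood apart were named outside this rule, after their values were seen. Adamtsl6 was matched to Thsd4 through RefSeq synonyms. Each library's mean squared difference from any other was at least 66.4 times the counting variance per gene, so the 8 libraries were counted separately. Lines of the same replicate number come from different embryos, and the correlations of their deviations (-0.157, 0.0585, 0.187 and -0.00323) did not pair them.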

Additional observations from a re-analysis of the deposited data

Results flagged for a closer look

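Among the 49 genes described (the 10 members, Slmap and the 38 other elastic fibre genes tested), each genotype's 4 lines were searched for a line that stood apart from the other 3, by the gap to its nearest neighbour as a share of the group's range (Dixon's ratio, above its 95% critical value). Chance gives about 1 in 20, or 4.9 of the 98 groups examined, and 6 were found. The ratio was taken on CPM without logs, and on that scale none of the 6 was in the 10 members or Slmap. On log2 CPM, Eln was -2.75 in WT replicate 1 and 4.24 to 4.69 in the other WT lines. The ratio on the log2 scale was not computed.

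Ltbp2 in WT replicate 1 was 176 CPM where the other WT lines were 819 to 935 CPM (ratio 0.848). Mfap2 in WT replicate 3 was 73.1 CPM where the other WT lines were 30.2 to 34.0 CPM (0.911). Adamts1 in SLMAP3-/- replicate 1 was 492 CPM where the other SLMAP3-/- lines were 209 to 248 CPM (0.862). Bmp1 in WT replicate 2 was 126 CPM where the other WT lines were 166 to 171 CPM (0.885). Tgfb1 in WT replicate 4 was 90.1 CPM where the other WT lines were 65.5 to 67.9 CPM (0.901). Adamts17 in SLMAP3-/- replicate 3 was 0.45 CPM where the other SLMAP3-/- lines were 0.140 to 0.190 CPM (0.837).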

How the results depend on the processing

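Each fit was repeated under 17 alternatives, 8 of which left out 1 line. In all 17 the difference of Slmap stayed between -1.91 and -1.76 on the log2 scale, and it was past the threshold in 16. The exception was the replicate block (-1.84, adjusted p 0.171 in edgeR); the numbers do not pair the lines, and the block changed no other call. The number of members called was 0 in 16 alternatives and 1 (Fbln1, 0.75 on the log2 scale) with DESeq2; the cause was not tested. The number of other elastic fibre genes called was 0 in all 17. The log2 fold change of Fbln1 stayed above 0, from 0.65 to 0.85. Its choice on this difference favours a steady sign, so this range is a description and no support. For Eln it ran from -2.29 to -0.57 over 16 alternatives (-1.99 with the replicate block), for Fbln2 from 0.15 to 0.51 and for Fbln5 from -0.52 to -0.01 over 17.

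The sign of Lox, near 0, turned with limma-voom (0.0519), the Y-linked covariate (0.0388) and the replicate block (0.0375). Leaving out 1 line gave ranges of -0.246 to 0.342 for Lox, -0.0263 to 1.36 for Efemp1, -0.0359 to 0.246 for Efemp2, -0.439 to 0.0580 for Fbn1, -0.169 to 0.555 for Fbn2 and -0.129 to 0.0924 for Ltbp1, each turning sign at least once, with the cause not tested. The median of the 9 genes other than Fbln1 ran from -0.15 to 0.25. Eln did not pass the filter of at least 10 counts in every library. Of the 36 pairs, 2 passed with a prior count of 0.5 as well, and 0 passed without the 2 farthest lines, where 6 lines allow no exact permutation p under 0.00278. DESeq2 without each line and the tests of Fbln1 within genotypes were chosen after seeing the data. Among the members the smallest estimated count in a line was 7 for Eln and 56 for Efemp1, and at least 3627 for each of the other 8.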

Other observations

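WT replicate 1 had the least Eln. It was also the lowest of the 8 lines in 13 of the 38 other elastic fibre genes tested, Ltbp2 and Hmcn1 among them. SLMAP3-/- replicate 3 was the highest in 13. How often each line was the lowest or highest over all tested genes was not counted. These counts are therefore not shown to be particular to elastic fibre genes. Of the 9 fibroblast markers, WT replicate 1 was the lowest of the 8 lines in 3 (Pdgfra, Dcn and Lum) and within the range of the other lines in 6, the collagen genes Col1a1, Col1a2 and Col3a1 among them. Pdgfra, a growth factor receptor gene, was 17.4 CPM there and 79.0 to 179 CPM in the other 7 lines, and Lum, which encodes the small proteoglycan lumican, was 0.113 CPM there and 1.61 to 18.5 CPM in the others. Of the 6 smooth muscle markers it was the lowest in 2 (Acta2 and Myh11) and within the range of the other lines in 4, and it was the lowest in both endothelial markers that passed the filter, Kdr and Tek. Acta2 was 1095 CPM there and 1212 to 3086 CPM in the others. This line was looked at after its values were seen, and the part of these markers in the Eln and Fbln5 values was not tested.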
